A study of Solenopsis invicta with 12 samples.

Results

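Workers of the fire ant Solenopsis invicta that carry the SB/SB genotype of the social supergene were compared between polygyne and monogyne colonies by RNA-Seq of their antennae. The comparison uses every library labelled SB/SB, which is 8 of the 12 libraries of the series. The class P_BB holds 4 libraries of SB/SB workers from polygyne colonies, and the class M_BB holds 4 libraries of SB/SB workers from monogyne colonies. The other 4 libraries, P_Bb, are SB/Sb workers from the same polygyne colonies as P_BB, and they enter here only as values set beside the SB/SB libraries and through the shared estimate of the spread. Bioreplicates are numbered 2, 3, 6 and 7 in each class, and lists of 4 values below follow that order. Each library is a pool of antennae of foraging workers of medium size from 1 colony, each worker genotyped at Gp-9, and the M_BB colony of a number was collected and sampled on the same days as the polygyne colony of that number. The RNA was amplified before sequencing. With 4 polygyne and 4 monogyne colonies, a p-value sets the difference of the classes against the spread between libraries of a class. The main fit took that spread from all 12 libraries as if independent, although P_Bb shares its colonies with P_BB. Anything else that sets the polygyne colonies apart from the monogyne ones cannot be told apart from queen number.

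A monogyne colony is headed by 1 queen and a polygyne colony by more than 1. Queen number goes with a supergene, a stretch of chromosome in which many genes are inherited together in an SB or an Sb form. Monogyne colonies hold SB/SB workers, while in polygyne colonies SB/SB workers live beside SB/Sb nestmates. Antennae are the main organ of smell in ants, and the hydrocarbons of the insect cuticle, which derive from fatty acids, serve ants as recognition cues. The comparison of P_BB with M_BB asks what differs with the social form of the colony among workers of the same SB/SB genotype.

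The deposited expected counts, RSEM's estimates of the read pairs of each gene, summed to between 2546365 and 3352972 per P_BB library and to between 1662249 and 4006513 per M_BB library. P_BB and M_BB libraries held 13234 ± 400 and 13169 ± 439 genes at 1 TPM or more (SD, n = 4 each), where TPM is RSEM's transcript abundance scaled to the same total in every library. An exact two-sided permutation test gave p = 0.857 for that difference, where the smallest p it can give is 0.0286. The library M_BB 2 stood apart. Its median correlation with the other 7 SB/SB libraries across genes was 0.879, against 0.919 to 0.953 for the other 7. In M_BB 2, 26.7% of the genes tested lay over 2-fold from the median of the other 3 libraries of the class, against 18% in P_BB 2 and 5.27% to 12.9% in the other 6. In each class, the study lists the largest share of duplicate reads for this furthest library. The part of duplicate reads in these distances was not tested. The libraries M_BB 2, M_BB 7 and P_BB 7 carry the name prefix LGC16 in their labels and the other 5 carry LGC, and what the prefix stands for is not given in the sources used here. Results are therefore given with all 8 libraries and, where the text says so, without M_BB 2 or with the libraries of the LGC prefix only. That last setting compares P_BB 2, P_BB 3 and P_BB 6 with M_BB 3 and M_BB 6. Its gene fits also used the P_Bb libraries of that prefix for the filter, the scaling and the spread.

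**Figure D1:**
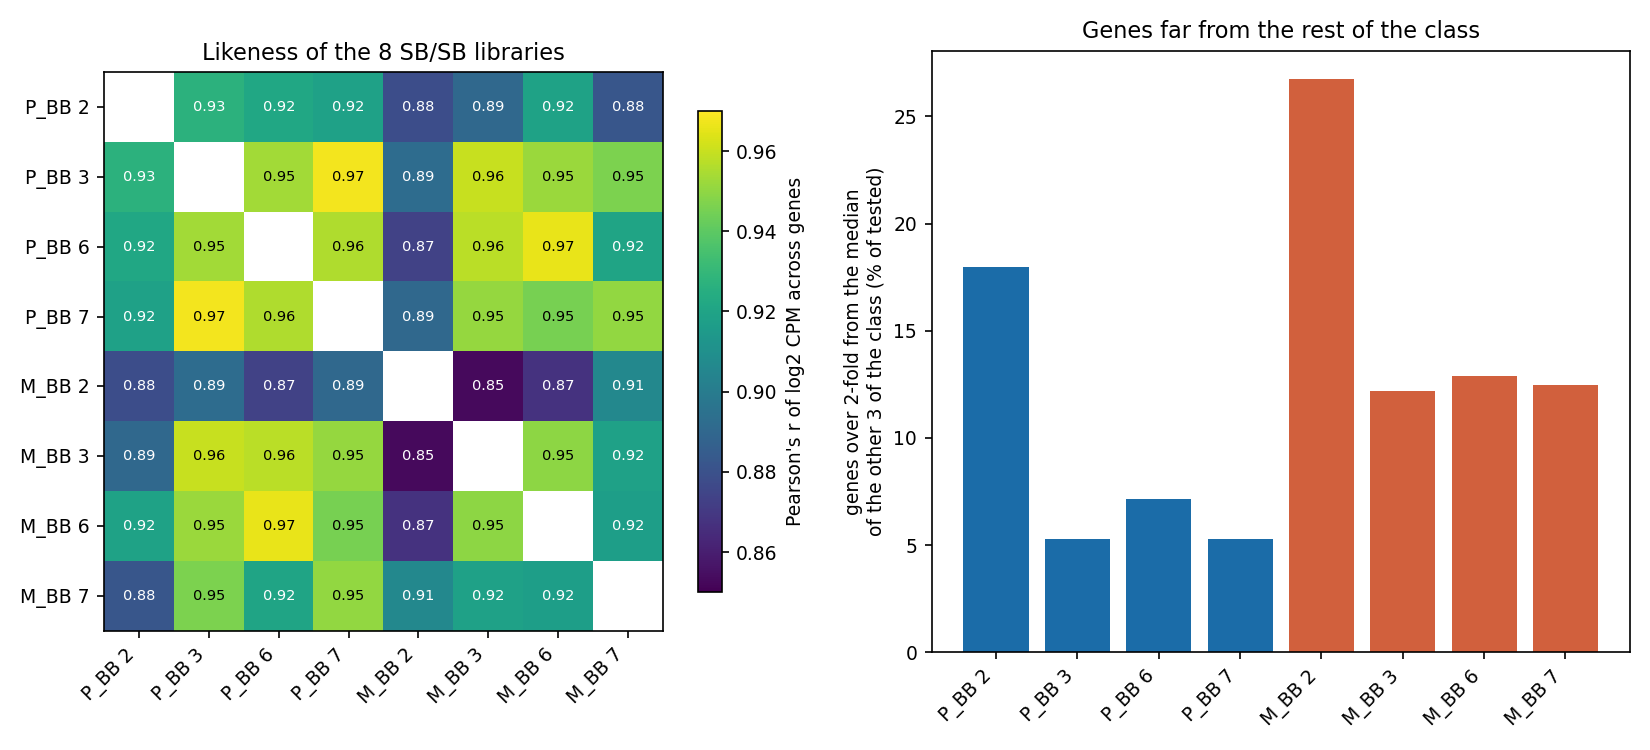
The left panel gives Pearson's r of log2 CPM (counts scaled to library size) across the genes tested for each pair of the 8 SB/SB libraries. The right panel gives the percent of genes that lay over 2-fold from the median of the other 3 libraries of the class, where M_BB 2 reached 26.7% and P_BB 2 reached 18%.

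No gene differed between P_BB and M_BB at an adjusted p under 0.05. Genes with enough counts numbered 10503, and edgeR's quasi-likelihood test, with p-values adjusted over all of them after Benjamini and Hochberg, called 0 (0.0%), and the smallest adjusted p was 0.286. At an unadjusted p under 0.05 there were 505 genes (4.81%), which does not reach the 525 that 0.05 of the genes tested comes to. Of these, 229 (2.18% of the genes tested) were higher and 276 (2.63%) were lower in P_BB. In TPM, all 4 P_BB libraries lay above all 4 M_BB libraries for 119 of the genes tested (1.13%) and below them for 67 (0.638%). On the same genes limma on log2(TPM + 1) also called 0 (419 at an unadjusted p under 0.05) and DESeq2 called 8 (577). The count at an unadjusted p under 0.05 was 347 without M_BB 2, 279 without P_BB 2, 822 without M_BB 3, 946 without M_BB 6 and 335 with the LGC libraries only, a setting chosen after seeing the data. With the 8 SB/SB libraries only, edgeR gave 332 of 10129 genes at that threshold and a smallest adjusted p of 0.672. Limma on log2(TPM + 1) put 69.2% of its calls at that threshold on the side higher in P_BB, against 45.3% in the edgeR fit. TPM shares a fixed total, so a gene that takes more of it lowers the TPM of the others. SINVm1_gene_06964 held 204605, 91922, 68276 and 155481 TPM in M_BB, against 65852 to 79547 TPM in P_BB. The part of this gene in the TPM split of 119 and 67 and in limma's split was not tested.

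The libraries limited how large a difference could have been missed. The 95% interval of the log2 fold change lay between -1 and 1, a difference of less than 2-fold either way, for 5652 genes, which is 53.8% of those tested. For the rest a 2-fold difference was not excluded at this depth and number of colonies. The median standard error of the log2 fold change was 0.32, and 312 genes had a log2 fold change beyond 1 in either direction.

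**Figure D2:**
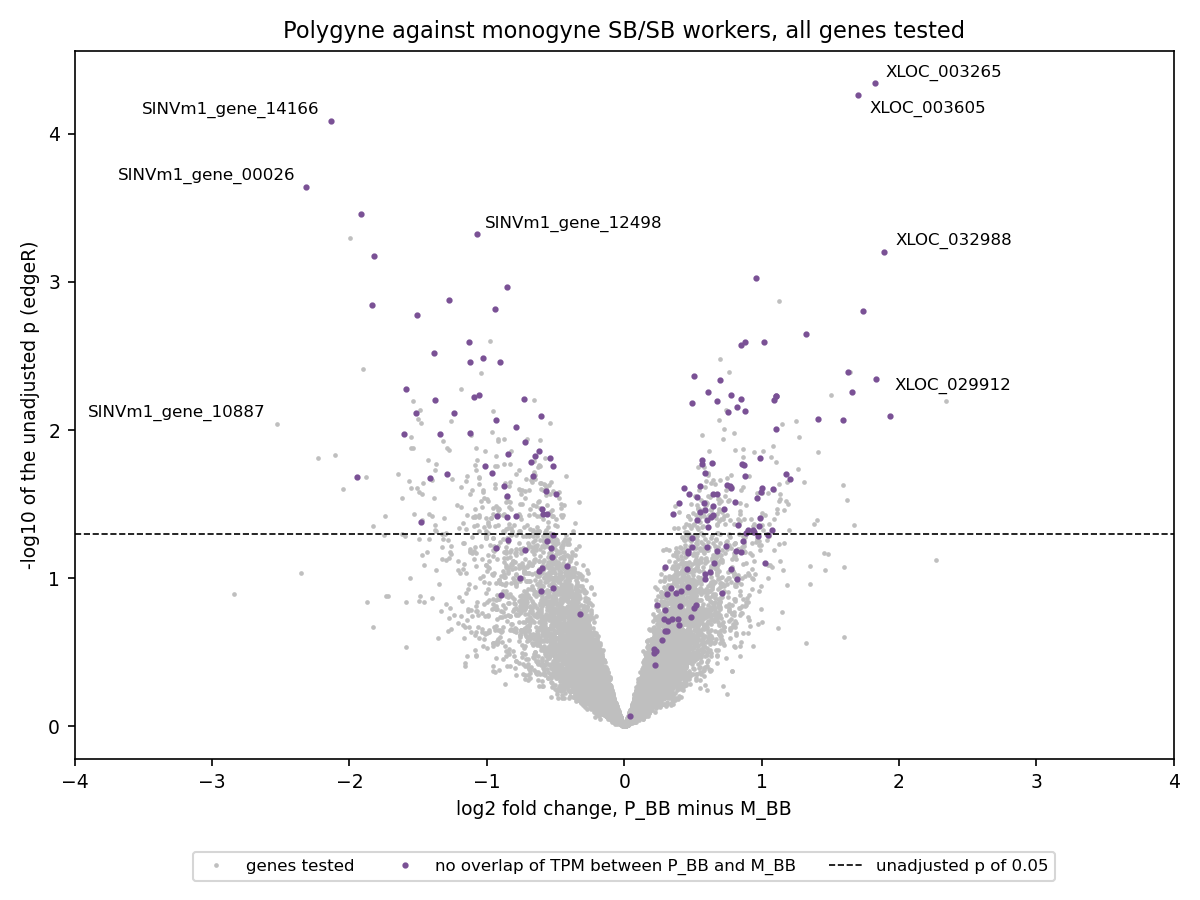
Each point is a gene, with the log2 fold change of P_BB minus M_BB on the x axis and the -log10 of edgeR's unadjusted p on the y axis. Purple points are genes whose TPM values did not overlap between the classes, 119 of them higher and 67 lower in P_BB, and the 8 labelled genes are described in the text.

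DESeq2's 8 genes were 6 lower and 2 higher in P_BB, and they are named after their values were seen. The lower ones were a desaturase, SINVm1_gene_14166 (DESeq2's adjusted p = 0.000485), SINVm1_gene_00026 (0.00141), XLOC_040784 (0.0297) and, at 0.0368 each, a pro-phenol oxidase, SINVm1_gene_02300, an ABC transporter, SINVm1_gene_12498, and SINVm1_gene_15573. The higher ones were the uncharacterized genes XLOC_003265 (0.000485) and XLOC_003605 (0.00066). Over all alternatives the adjusted p of these genes ran from DESeq2's value up to 0.999 or above, and none of the 8 had an adjusted p under 0.05 in any other of the fits.

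Genes of chemical metabolism were mostly lower in P_BB on the unadjusted scale, led by a desaturase. The list holds 8 genes that the study assigned to social form on these same libraries, so its direction, sizes and p-values are not independent evidence. Of the 7 with enough counts, 5 were lower and 2 were higher in P_BB at an unadjusted p under 0.05 (background 2.63% lower and 2.18% higher), and 0 passed after adjustment. The median log2 fold change of the 7 was -0.71, against -0.02 over all genes tested. Without M_BB 2 the same 5 and 2 remained at that threshold. In bulk antennae, fewer cells of a type and less RNA per cell cannot be told apart, here or in the groups that follow.

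SINVm1_gene_14166 is predicted to be an acyl-delta desaturase, an enzyme that puts double bonds into fatty acid chains, which in insects become cuticular hydrocarbons among other products. Its level was 42.9, 89.3, 29.2 and 50.3 TPM in P_BB, against 123, 151, 312 and 316 TPM in M_BB. Every P_BB library lay below every M_BB library, and the P_Bb libraries, at 66.4, 46.2, 36.5 and 81.8 TPM, lay below M_BB as well. P_BB minus M_BB came to a log2 fold change of -2.14 ± 0.39 (SE, 95% interval -2.98 to -1.29, adjusted p = 0.288 in edgeR), and it was -2.28 without M_BB 2 and -2.0 with the LGC libraries only.

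SINVm1_gene_01163, a predicted fatty acyl reductase of the family that turns fatty acyl chains into alcohols, had 14.9, 24.4, 12.2 and 17.9 TPM in P_BB, against 20.6, 28.8, 49.7 and 33.1 TPM in M_BB. P_BB was the lower in all 4 pairs of the same number, but P_BB 3 lay above M_BB 2. The log2 fold change was -0.96 ± 0.33 (SE). SINVm1_gene_01650, predicted to be a glycerol-3-phosphate acyltransferase, the enzyme of the first step from glycerol phosphate to storage and membrane lipids, had 28.7, 48.1, 47.8 and 52.2 TPM in P_BB, against 60.5, 79.4, 62.5 and 55.4 TPM in M_BB. Its classes did not overlap, but P_BB 7 and M_BB 7 lay close to each other, and its log2 fold change was -0.61 ± 0.20 (SE).

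A predicted fatty acid synthase, SINVm1_gene_00676, builds the chains that these enzymes act on, and it had too few counts for the edgeR test of all libraries. It was listed at 0, 5.43, 11.9 and 9.12 TPM in P_BB, against 10.2, 24.8, 97.6 and 27.7 TPM in M_BB, on 0 to 6.1 counts per P_BB library and 5 to 64.1 counts per M_BB library. Each P_BB library was below the M_BB library of its number, and P_BB 6 was above M_BB 2.

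Outside lipid synthesis, SINVm1_gene_02300 is a predicted subunit of pro-phenol oxidase, the enzyme of melanin formation in insect cuticle and immunity. It was low throughout, at 1.19, 2.77, 4.11 and 4.76 TPM in P_BB, against 4.56, 9.98, 21.2 and 14.5 TPM in M_BB, on 4 to 17 counts per P_BB library and 17 to 113 counts per M_BB library. P_BB 7 lay just above M_BB 2 and the classes otherwise did not overlap. Its log2 fold change was -1.99 ± 0.45 (SE), and -2.22 without M_BB 2.

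SINVm1_gene_03610, a predicted synthase of trehalose phosphate, the precursor of the main blood sugar of insects, averaged 11.4 ± 2.81 TPM in P_BB and 18.4 ± 6.69 TPM in M_BB (SD, n = 4 each), and only M_BB 2 lay within the P_BB range. Its log2 fold change was -0.71 ± 0.25 (SE), and -0.86 without M_BB 2.

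The 2 chemical metabolism genes on the higher side did not overlap between the classes. SINVm1_gene_00238, a predicted FE4-like esterase, belongs to the carboxylesterases, which in aphids break down ester insecticides. It had 144, 161, 140 and 156 TPM in P_BB, against 33.8, 127, 112 and 88.3 TPM in M_BB, with M_BB 2 far below the rest. It had a log2 fold change of 0.76 ± 0.25 (SE), 0.53 without M_BB 2 and 0.45 with the LGC libraries only. SINVm1_gene_10049, a predicted iduronate 2-sulfatase, is an enzyme that in mammals takes apart sulfated sugar chains in lysosomes. It had 113, 127, 106 and 89.0 TPM in P_BB, against 43, 63.1, 76.0 and 58.5 TPM in M_BB, a log2 fold change of 0.85 ± 0.24 (SE) that was 0.78 without M_BB 2 and 0.87 with the LGC libraries only.

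**Figure D3:**
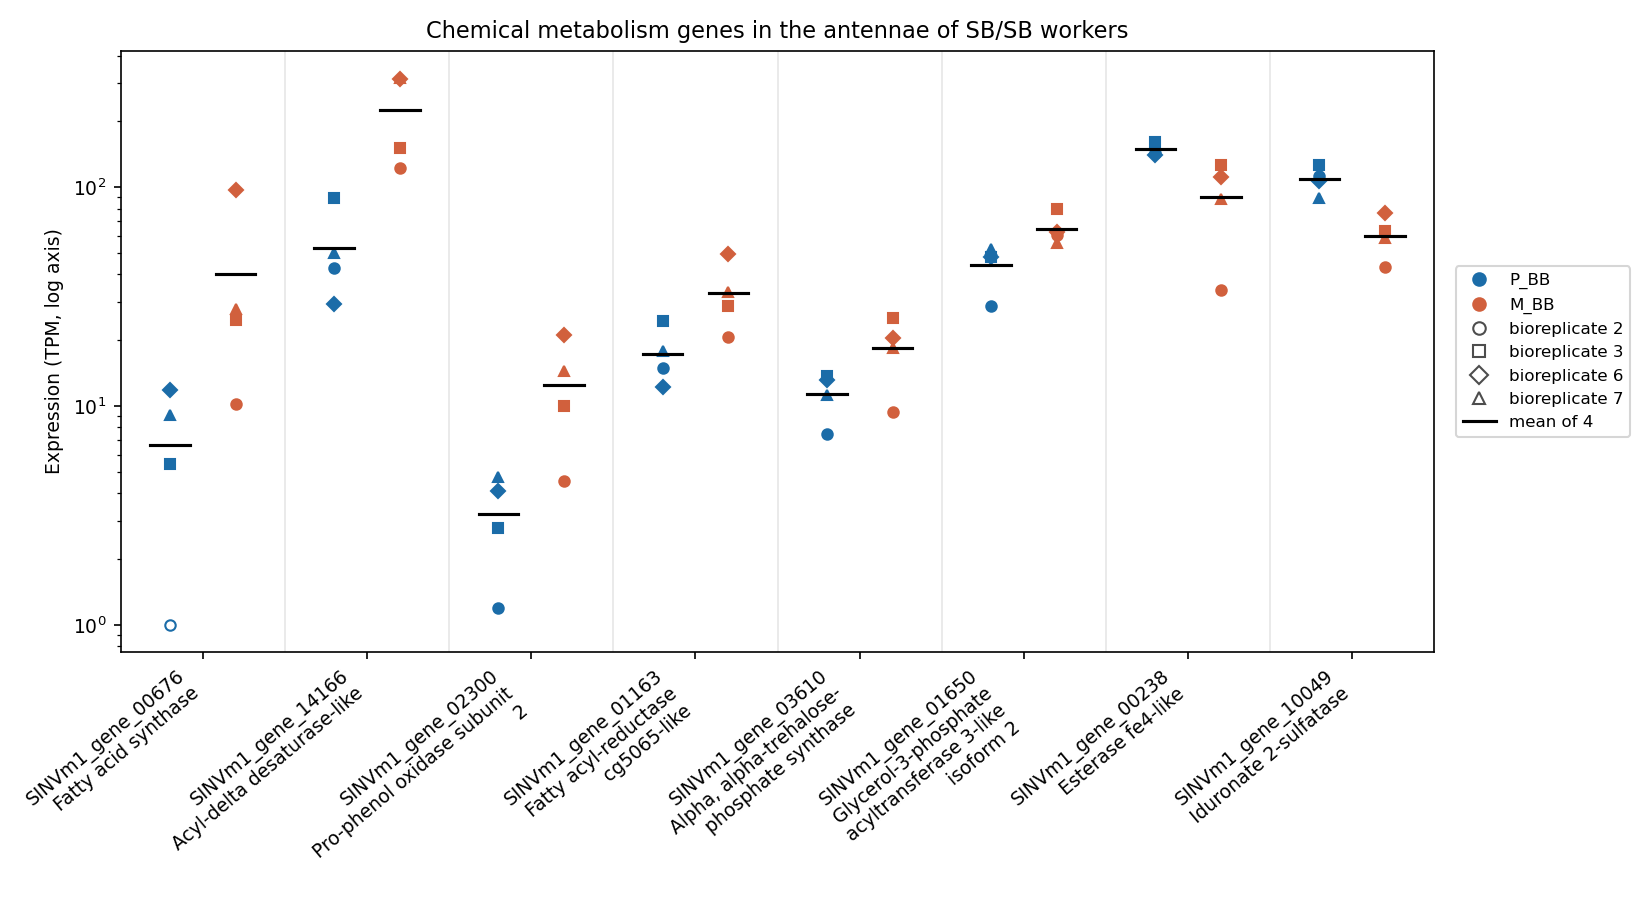
TPM on a log axis of the 8 chemical metabolism genes in each P_BB and M_BB library, with a bar for the mean of 4, and an open symbol at 1 TPM for a library listed at 0. The desaturase SINVm1_gene_14166 lay between 29.2 and 89.3 TPM in P_BB and between 123 and 316 TPM in M_BB, and the esterase and the sulfatase were higher in every P_BB library.

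Of the 6 genes of the social form list that resemble transposable elements, stretches of DNA that copy themselves within a genome, 5 could be tested, 4 were higher and 1 was lower in P_BB at an unadjusted p under 0.05 (2.18% and 2.63% over all genes tested), and 0 passed after adjustment. Their median log2 fold change was 0.88. Without M_BB 2, 2 were higher and 1 lower at that threshold, and with the LGC libraries only 3 and 0. This list too was chosen on these libraries.

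XLOC_032988, on scaffold00174 from 406492 to 408670 in Si_gnH, resembles Gypsy, a retrotransposon with long terminal repeats. It had 7.72, 10.1, 6.05 and 8.64 TPM in P_BB, against 1.88, 1.03, 3.56 and 1.66 TPM in M_BB. The lowest P_BB library was above the highest M_BB library, and the P_Bb libraries of the same colonies spanned 3.63 to 8.59 TPM. The log2 fold change of P_BB minus M_BB was 1.89 ± 0.44 (SE, 95% interval 0.95 to 2.83), and 1.94 without M_BB 2.

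XLOC_002577, which resembles a Pol polyprotein, the part of a retrotransposon that copies RNA into DNA, averaged 34.1 ± 2.82 TPM in P_BB and 18.6 ± 6.99 TPM in M_BB (SD, n = 4 each), without overlap and with a log2 fold change of 0.88 ± 0.24 (SE). XLOC_001842, another Pol-like gene, went the other way with 12.5, 7.49, 11.9 and 6.38 TPM in P_BB, against 14.0, 18.6, 20.0 and 27.4 TPM in M_BB, again without overlap, and its log2 fold change was -1.09 ± 0.34 (SE).

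Both other tested members are HARBI1-like nucleases, proteins that derive from the transposase of Harbinger DNA elements. SINVm1_gene_10481 had 245, 271, 269 and 270 TPM in P_BB, against 60.9, 189, 184 and 233 TPM in M_BB, so the P_BB colonies were close to each other and M_BB 2 was far below. The log2 fold change of 0.65 ± 0.26 (SE) was 0.42 without M_BB 2. SINVm1_gene_09125 was low, at 1.82, 3.59, 6.44 and 11.5 TPM in P_BB, against 0.54, 3.14, 3.07 and 0 TPM in M_BB, with overlap between the classes, and its log2 fold change of 1.59 ± 0.63 (SE) was 0.45 with the LGC libraries only. The sixth member, Mariner 29 (SINVm1_gene_10899), was listed at 0 in all 4 P_BB libraries and in 3 M_BB libraries, and at 174 TPM in M_BB 6. RSEM's posterior SD for this gene was 275% of its count over the SB/SB libraries, so its level is uncertain.

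Apart from these groups, 29 genes of the social form list are named for other functions or are uncharacterized. Of the 14 tested with another predicted function, 7 were higher and 5 lower in P_BB at an unadjusted p under 0.05, and of the 13 tested uncharacterized ones 7 were higher and 5 lower. Over the whole list of 43 genes, 39 were tested, 20 were higher and 16 lower at that threshold (2.18% and 2.63% over all genes tested), and 0 passed after adjustment. The TPM values of 14 were higher and of 7 lower without overlap (1.13% and 0.638% over all genes tested). All 21 tested genes that the study lists as higher in polygyne colonies had a positive log2 fold change here, and all 18 tested genes listed as higher in M_BB had a negative one, a direction that choosing the lists on these libraries fixes in part. The median size of the log2 fold change, without its sign, was 0.85 over the 39, against 0.24 over all genes tested. Choosing the lists on these libraries also favours small p-values, gaps between the classes and large sizes. The counts and this median are therefore descriptions and not independent evidence. Without M_BB 2, 17 were higher and 14 lower at that threshold, and with the LGC libraries only 12 and 11.

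XLOC_003265 and XLOC_003605 had the 2 smallest p-values of the whole comparison. Both lie on short contigs of Si_gnH, contig33228 from 2 to 1367 and contig35838 from 1 to 1210, each as 1 exon. XLOC_003265 had 161, 83.2, 150 and 184 TPM in P_BB, against 19.2, 65.4, 41.1 and 40.8 TPM in M_BB. XLOC_003605 had 204, 94.5, 172 and 169 TPM in P_BB, against 28.5, 79.2, 56.6 and 35.7 TPM in M_BB. For both genes bioreplicate 3 was the lowest of P_BB and the highest of M_BB, and the classes did not overlap. Their log2 fold changes were 1.82 ± 0.32 and 1.70 ± 0.31 (SE), with an adjusted p of 0.286 each in edgeR. The P_Bb libraries reached 118 to 269 TPM for XLOC_003265 and 133 to 303 TPM for XLOC_003605.

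Among the genes with other predicted functions, SINVm1_gene_12498 resembles ABCG1, a transporter that in mammals moves sterols out of cells. It had 60.9, 92.2, 66.8 and 50.1 TPM in P_BB, against 137, 101, 154 and 142.1 TPM in M_BB, without overlap, and its log2 fold change was -1.07 ± 0.24 (SE), or -0.70 with the LGC libraries only. SINVm1_gene_06423 resembles Croquemort, a scavenger receptor that in Drosophila blood cells takes up dying cells, and it had 28.8, 46.2, 41.5 and 51.3 TPM in P_BB, against 66.0, 75.8, 70.7 and 76.8 TPM in M_BB. The M_BB colonies were close to each other and all were above P_BB, for a log2 fold change of -0.85 ± 0.21 (SE).

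XLOC_030870, a predicted AAA ATPase on scaffold00136 from 542678 to 544279, had 22.3, 15.3, 16.4 and 15.6 TPM in P_BB, against 2.66, 8.13, 2.67 and 14.1 TPM in M_BB, a log2 fold change of 1.41 ± 0.46 (SE). In TPM, M_BB 7 came close to the P_BB range without entering it. In CPM, M_BB 7 was at 13.7 and lay within the P_BB range of 13.0 to 23.4. SINVm1_gene_01363, predicted to be subunit 2 of the COP9 signalosome, a complex that removes the Nedd8 tag from ubiquitin ligases, had 79.7, 49.4, 51.1 and 40.7 TPM in P_BB, against 6.57, 31.1, 28.7 and 24.5 TPM in M_BB. Its log2 fold change of 1.32 ± 0.36 (SE) was 1.06 without M_BB 2, the lowest library. SINVm1_gene_03418, an uncharacterized transporter of the major facilitator type, had 24.4, 24.4, 24.4 and 23.1 TPM in P_BB, against 51.1, 41.8, 43.1 and 39.0 TPM in M_BB, and its log2 fold change was -0.94 ± 0.24 (SE).

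Differences near the other end of the range belonged to SINVm1_gene_14059, an uncharacterized gene with 235 ± 21.0 TPM in P_BB and 196 ± 38.9 TPM in M_BB, and SINVm1_gene_04716, a predicted exonuclease with 41.5 ± 8.23 TPM in P_BB and 50.9 ± 8.22 TPM in M_BB (SD, n = 4 each). Both overlapped between the classes, with log2 fold changes of 0.23 ± 0.14 and -0.35 ± 0.18 (SE).

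A few genes of the list rested on single colonies. SINVm1_gene_00053 resembles painless, a channel of the TRP family that Drosophila needs to sense harmful heat. It had 21.5, 27.5, 23.1 and 10.5 TPM in P_BB, against 0.76, 50.0, 102 and 0 TPM in M_BB. The M_BB colonies thus lay on either side of the P_BB range, the LGC16 libraries M_BB 2 and M_BB 7 below it and the LGC libraries M_BB 3 and M_BB 6 above it, and the part of the prefix in this was not tested. The log2 fold change of -0.83 ± 0.93 (SE) turned positive, to 0.38, without M_BB 6 and to 1.06 in limma on log2(TPM + 1).

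SINVm1_gene_10887, an uncharacterized gene, had 137, 215, 262 and 257 TPM in P_BB, against 2698, 249, 146 and 803 TPM in M_BB. Its large log2 fold change of -2.53 ± 0.82 (SE) rested on the LGC16 libraries M_BB 2 and M_BB 7, since it was -0.98 without M_BB 2 and 0.21 with the LGC libraries only. Its unadjusted p in edgeR was 0.00914, and 0.0736 with the replicate number as a block. XLOC_000138 was listed at 65.6 TPM in M_BB 2, on 38 counts, and had at most 4 counts in each of the other SB/SB libraries. SINVm1_gene_10721, a predicted TatD deoxyribonuclease, had 1, 7, 3 and 1 counts in P_BB, against 0, 0, 0 and 1 counts in M_BB, too few to compare.

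The largest differences without overlap included many genes that the social form list does not hold. Of the 10503 genes tested, 79 had an unadjusted p under 0.01, which does not reach what 0.01 of the genes tested comes to. A mean of at least 5 TPM was held by 10001 of the genes tested. Among genes with that p, that mean and no overlap of TPM between the classes there were 29 higher and 24 lower in P_BB. In CPM, XLOC_030870 and SINVm1_gene_05662 overlapped between the classes. The 10 largest in each direction were chosen on this contrast, so their values are a description. Apart from SINVm1_gene_14166 and SINVm1_gene_00166, the official gene IDs among them carry no name in the sources used here.

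On the higher side, SINVm1_gene_03757 had 31.9, 31.3, 34.2 and 25.6 TPM in P_BB, against 5.04, 7.64, 15.2 and 0 TPM in M_BB, a log2 fold change of 1.94 ± 0.63 (SE). SINVm1_gene_08682 had 7.05, 13.2, 13.2 and 8.52 TPM in P_BB, against 4.0, 4.52, 2.64 and 1.22 TPM in M_BB. SINVm1_gene_09036 had 141, 85.5, 80.8 and 71.0 TPM in P_BB, against 4.46, 41.7, 41.8 and 32.2 TPM in M_BB. All 3 rest on few counts per library. SINVm1_gene_03757 had 9 to 14 counts in P_BB and 0 to 8 in M_BB. SINVm1_gene_08682 had 10 to 25 and 1 to 9, and SINVm1_gene_09036 had 14 to 27 and 1 to 12. M_BB 2 was the lowest library for 6 of the 10 genes on this side and M_BB 7 for 3. Over all genes tested, in log2 CPM, M_BB 2 was the lowest of its class for 33.1% and M_BB 7 for 22.6%. SINVm1_gene_04522 and SINVm1_gene_10623 had log2 fold changes of 1.63 ± 0.48 and 1.59 ± 0.53 (SE), and the other 5 were XLOC_032988, XLOC_003265, XLOC_003605, XLOC_030870 and SINVm1_gene_00166.

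The lower side held the desaturase SINVm1_gene_14166 and was led by SINVm1_gene_00026, with 13.1, 11.6, 11.5 and 22.8 TPM in P_BB, against 62.6, 36.0, 140 and 42.5 TPM in M_BB, and a log2 fold change of -2.31 ± 0.47 (SE). SINVm1_gene_15260 had 9.54, 8.51, 5.61 and 12.4 TPM in P_BB, against 12.8, 19.1, 68.9 and 28.1 TPM in M_BB. SINVm1_gene_15573 had 8.90, 5.53, 4.72 and 10.1 TPM in P_BB, against 17.5, 17.3, 50.2 and 17.2 TPM in M_BB. M_BB 6 was the highest library for 6 of the 10 genes on this side and M_BB 2 for 3. Over all genes tested, in log2 CPM, M_BB 6 was the highest of its class for 25.3% and M_BB 2 for 32.6%.

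Of the remaining ones, SINVm1_gene_00524 had M_BB colonies close to each other, with 9.87, 16.4, 14.8 and 7.78 TPM in P_BB, against 34.6, 25.8, 38.2 and 34.0 TPM in M_BB, and a log2 fold change of -1.51 ± 0.39 (SE). It rests on 4 to 10 counts per P_BB library and 13 to 30 counts per M_BB library. SINVm1_gene_05662, SINVm1_gene_01636, SINVm1_gene_13844, SINVm1_gene_11358 and SINVm1_gene_02859 had log2 fold changes of -1.59, -1.51, -1.38, -1.38 and -1.28. SINVm1_gene_01636 had -0.91 without M_BB 2 and -0.67 with the LGC libraries only. For SINVm1_gene_11358, M_BB 2 at 150 TPM stood far above the other M_BB libraries, and the log2 fold change was -0.64 without it.

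**Figure D4:**
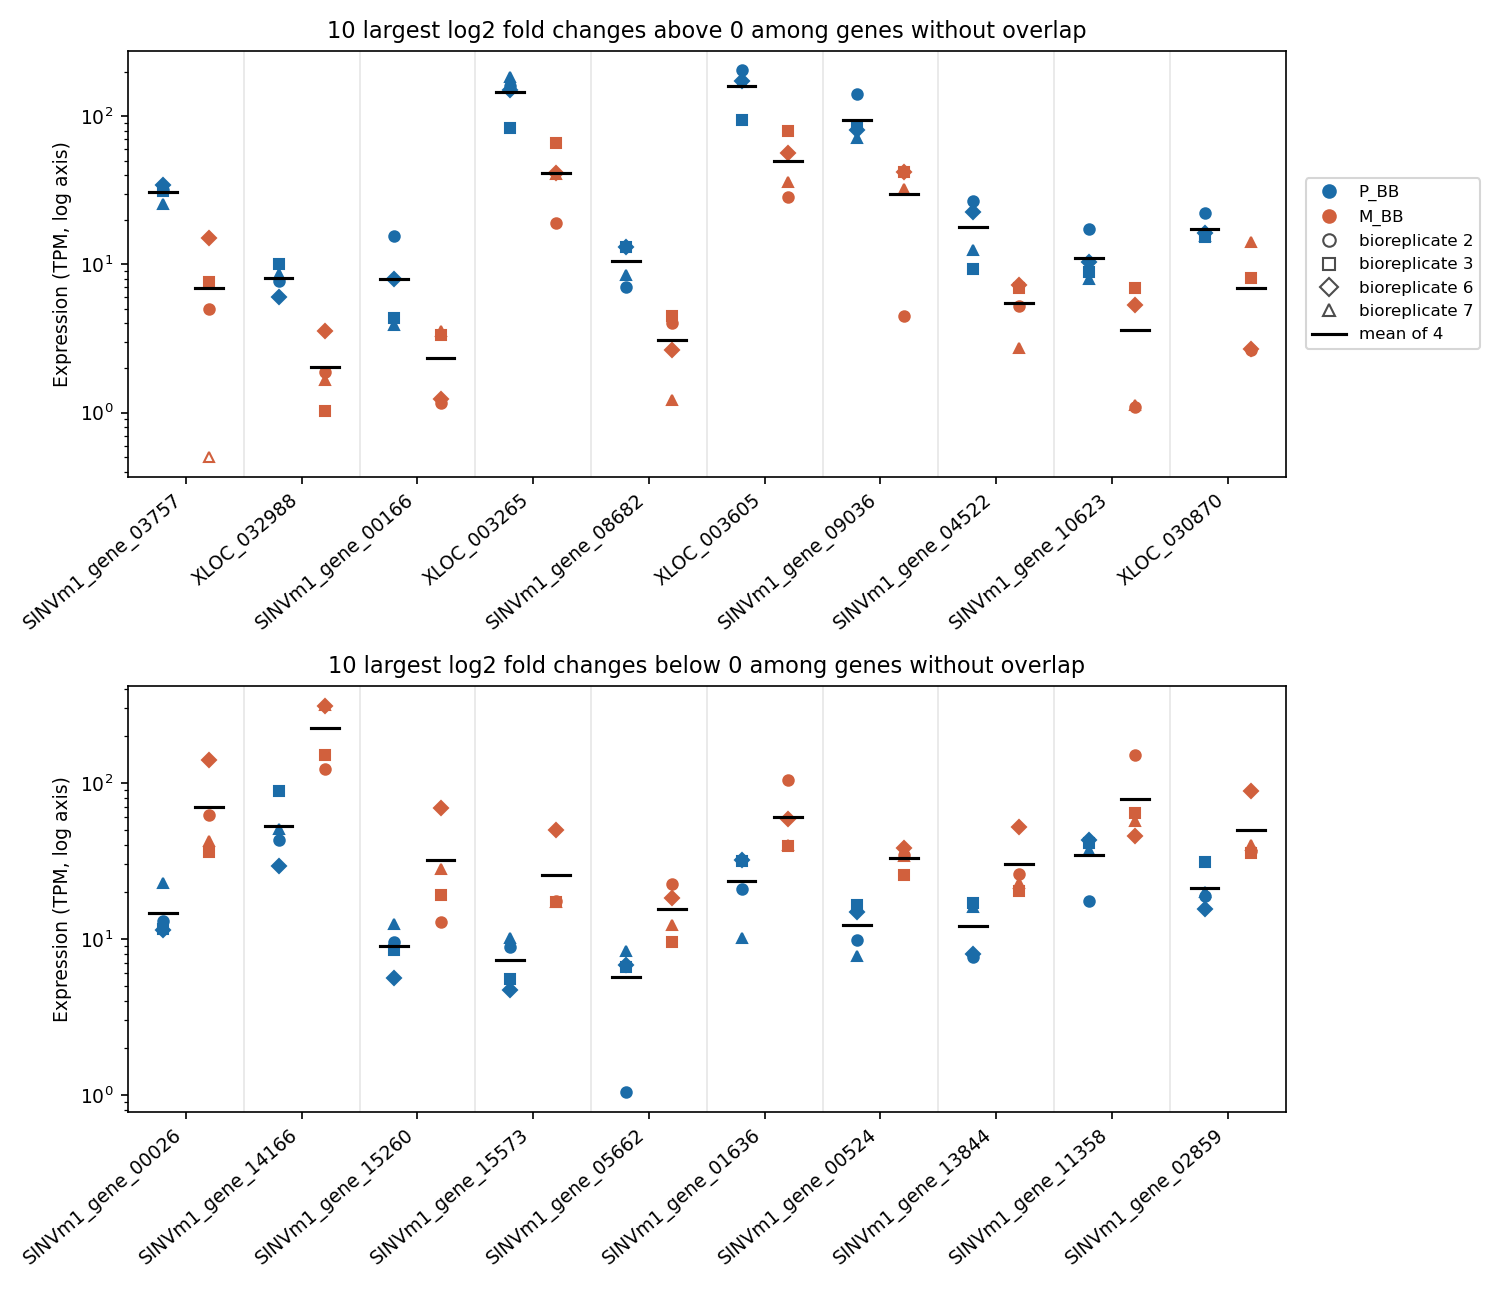
TPM on a log axis in each P_BB and M_BB library for the 10 largest positive (top) and 10 largest negative (bottom) log2 fold changes among genes without overlap, with a bar for the mean of 4, and an open symbol at 0.5 TPM for a library listed at 0. The genes were selected for the gap that the plot shows. M_BB 6 was the highest library for 6 of the 10 in the bottom panel, and the highest of its class for 25.3% of all genes tested in log2 CPM.

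2 further genes were singled out after their values were seen. XLOC_029912, on scaffold00123 from 22 to 2977, had 14.0, 10.7, 35.6 and 14.7 TPM in P_BB, against 1.2, 12.8, 0.54 and 0.59 TPM in M_BB, so M_BB 3 alone of its class lay within the P_BB range. Its log2 fold change was 2.34 ± 0.72 (SE). Without M_BB 3 it was 4.43 with an adjusted p of 0.00672 in edgeR, the 1 gene called in that fit, while its adjusted p over all alternatives ran up to above 0.999. XLOC_040784 had 1.12, 1.51, 3.16 and 1.97 TPM in P_BB, against 5.03, 12.5, 6.50 and 4.59 TPM in M_BB, and a log2 fold change of -1.92 ± 0.42 (SE). RSEM's posterior SD was 28.2% of its count over the SB/SB libraries, so its level is uncertain.

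The study lists 33 genes as higher in SB/Sb workers, chosen because P_Bb exceeded both SB/SB classes in these same libraries, so the gap to P_Bb is a description and no check of the SB/SB label. Their summed level was 486, 422, 414 and 358 TPM in P_BB and 1399, 1428, 1359 and 1486 TPM in P_Bb of the same colonies, against 293, 489, 430 and 320 TPM in M_BB. The ranges of both SB/SB classes overlapped each other. In CPM the sums were 416, 386, 408 and 329 in P_BB, against 422, 372, 334 and 340 in M_BB, and 1107 to 1280 in P_Bb. Of the SB/SB libraries, M_BB 2 was thus the lowest in TPM and the highest in CPM, so its rank depends on the scaling. For 29 of the 33 genes every SB/SB library lay below every P_Bb library. In P_BB minus M_BB, 31 of them could be tested, 2 were higher and 0 lower at an unadjusted p under 0.05 (2.18% and 2.63% over all genes tested), and their median log2 fold change was 0.08.

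SINVm1_gene_00166, a predicted transposase domain protein, had 15.5, 4.37, 7.93 and 3.88 TPM in P_BB and 74.4, 51.0, 60.6 and 52.7 TPM in P_Bb, against 1.2, 3.35, 1.23 and 3.57 TPM in M_BB. All P_BB libraries lay above all M_BB libraries, at a log2 fold change of 1.83 ± 0.55 (SE), though P_BB 7 exceeded M_BB 7 by little. These values rest on 24, 8, 15 and 6 counts in P_BB, against 2, 6, 3 and 4 counts in M_BB. From inspection by eye and a Tukey test, the paper proposes genotype as the main factor for SINVm1_gene_00166 and XLOC_023347. XLOC_023347, on scaffold00059 from 4 to 5251, had 16.2, 25.7, 23.1 and 12.0 TPM in P_BB and 57.4 to 73.4 TPM in P_Bb, against 10.3, 19.9, 8.53 and 17.4 TPM in M_BB, and the SB/SB classes overlapped.

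SINVm1_gene_02111 is the gene model of SiOBP12, an odorant-binding protein of the supergene, from the family that carries odour molecules through the fluid of the antennal hairs. The study's gene table lists this ID as SiOBP12b′, a copy carried by Sb, and the counts of this gene model do not say which copy was read in an SB/SB pool. It had 10.2, 3.82, 1.21 and 0 TPM in P_BB and 57.8, 105, 28.6 and 55.2 TPM in P_Bb, against 0, 0, 0.94 and 1.97 TPM in M_BB. These values rest on 7, 3.1, 1 and 0 counts in P_BB and 28 to 60.1 counts in P_Bb, against 0, 0, 1 and 1 counts in M_BB. P_BB 2 and P_BB 3 were above every M_BB library and P_BB 7 was at 0, so the SB/SB classes overlapped, and the log2 fold change of 2.27 ± 1.19 (SE) has a 95% interval from -0.26 to 4.80. SiOR463 (XLOC_016888), also named after its values were seen, is a supergene gene for an odorant receptor, the membrane protein that binds odours on sensory neurons. It had 11.5, 11.6, 13.7 and 12.1 TPM in P_BB, against 16.0, 11.8, 10.6 and 13.8 TPM in M_BB. Its 95% interval ran from -0.91 to 0.55 on the log2 scale.

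The 3 genes of the list with the highest P_Bb mean overlapped between the SB/SB classes. SINVm1_gene_10777, a HARBI1-like nuclease, averaged 75.7 ± 8.98 TPM in P_BB and 152 ± 19.6 TPM in P_Bb, against 63.0 ± 19.9 TPM in M_BB (SD, n = 4 each). SINVm1_gene_05176, a predicted phosphatase of the RNA polymerase tail, averaged 56.5 ± 11.6 TPM in P_BB and 130 ± 25.2 TPM in P_Bb, against 73.2 ± 18.1 TPM in M_BB (SD, n = 4 each). XLOC_000345 varied between colonies of both SB/SB classes, with 132, 76.3, 18.6 and 33 TPM in P_BB, against 8.15, 94.4, 98.2 and 13.0 TPM in M_BB.

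**Figure D5:**
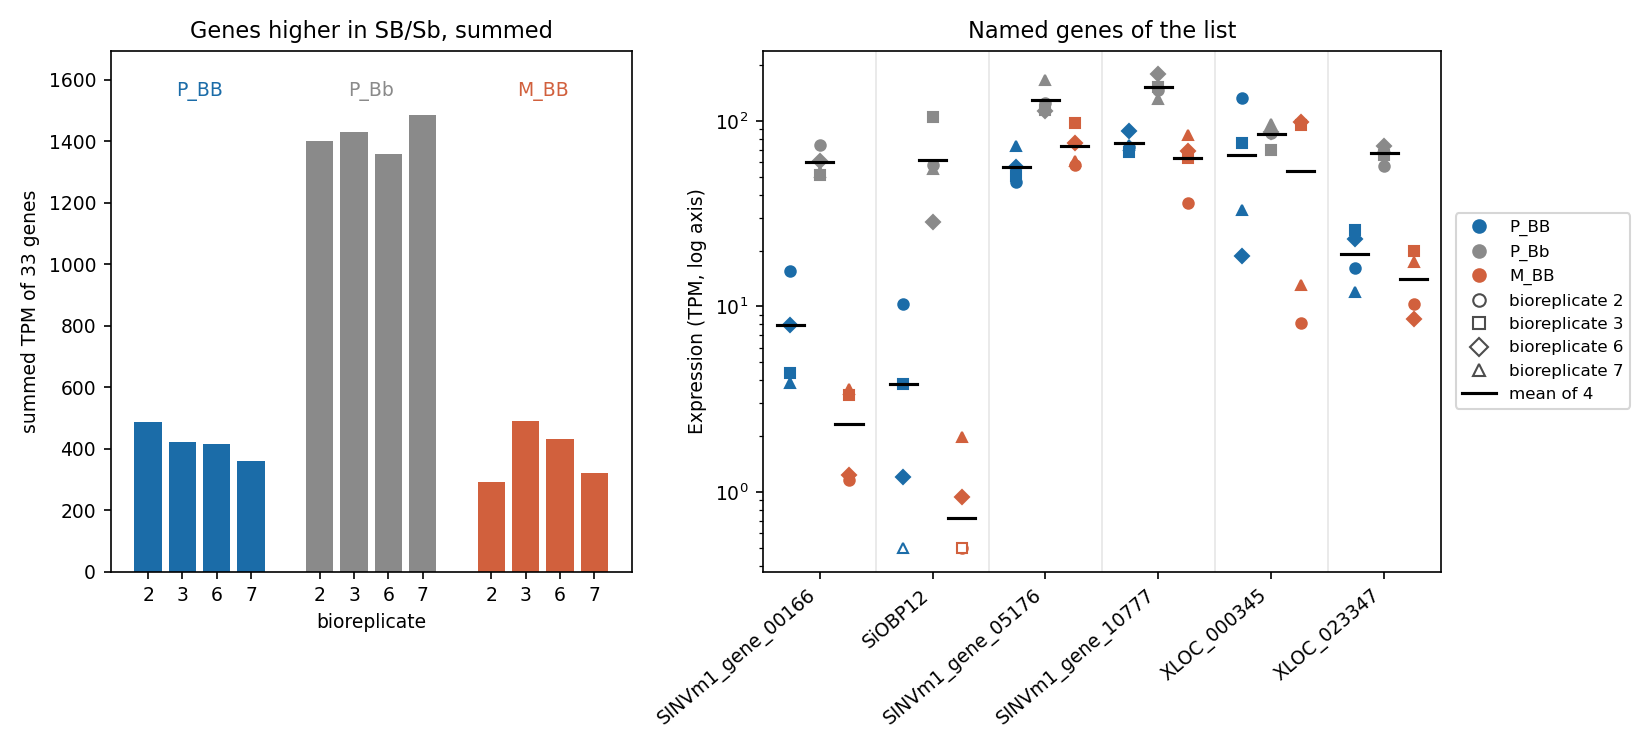
The left panel gives the summed TPM of the 33 genes listed as higher in SB/Sb workers in each library, with 358 to 486 TPM in P_BB, 1359 to 1486 TPM in P_Bb and 293 to 489 TPM in M_BB. The right panel gives the TPM of 6 of these genes on a log axis, with a bar for the mean of 4 and an open symbol at 0.5 TPM for a library listed at 0.

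SINVm1_gene_06964 had the highest mean of all genes over the 8 libraries, with 68374, 65852, 79547 and 71005 TPM in P_BB, against 204605, 91922, 68276 and 155481 TPM in M_BB. M_BB 2, M_BB 7 and M_BB 3 lay above every P_BB library, while M_BB 6 lay within the P_BB range. Its log2 fold change was -1.08 ± 0.38 (SE) with all libraries and 0.01 with the LGC libraries only.

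XLOC_043984, XLOC_043981 and XLOC_043987 lie on scaffold01196 of Si_gnH, and the last 2 overlap at one end, from 9564 to 11659 and from 9287 to 9625, on opposite strands. RSEM's posterior SD was 0.0028% of the count for XLOC_043981 and 0.0073% for XLOC_043987 over the SB/SB libraries. XLOC_043984 had 79197, 29486, 28641 and 39195 TPM in P_BB, against 36238, 8347, 18566 and 18412 TPM in M_BB. Each P_BB library was above the M_BB library of its number for all 3 genes, while the ranges overlapped, and the log2 fold changes were 0.93 ± 0.47, 0.86 ± 0.54 and 0.46 ± 0.39 (SE). Without M_BB 2 they were 1.33, 1.60 and 0.77, without P_BB 2 they were 0.49, 0.36 and 0.18, and without M_BB 3 those of XLOC_043981 and XLOC_043987 were 0.59 and 0.19. With the replicate number as a block, edgeR's unadjusted p was 0.043 for XLOC_043984 and 0.029 for XLOC_043981, against 0.070 and 0.138 without it. The other gene among the 5 most abundant, SINVm1_gene_04498, averaged 7824 ± 1006 TPM in P_BB and 6342 ± 2978 TPM in M_BB (SD, n = 4 each), with M_BB 2 the lowest at 2560 TPM.

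Transcripts assembled by the authors outside the official gene set (XLOC genes) took 36.7 ± 5.08% of the counts in P_BB and 32.4 ± 3.91% in M_BB (SD, n = 4 each, exact two-sided permutation test, p = 0.257). Of the 2695 XLOC genes tested, 89 were higher and 36 lower in P_BB at an unadjusted p under 0.05 (2.18% and 2.63% over all genes tested), and of the 7808 official genes 140 were higher and 240 lower. The XLOC split was 90 and 17 without M_BB 2, 128 and 45 with the replicate number as a block, but 34 and 36 without P_BB 2. The official split turned to 197 and 109 in limma on log2(TPM + 1).

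P_BB colonies were more alike than M_BB colonies when all 8 libraries were used. The median SD of a gene's log2 CPM over 4 libraries was 0.38 in P_BB and 0.46 in M_BB, 379 and 1133 genes had an SD over 1, and the SD was the larger in P_BB for 37.4% of the genes and in M_BB for 62.6%. Without M_BB 2 the median SD of M_BB was 0.35 and 622 genes had an SD over 1, so the difference in the median turned round. Correlations between libraries were 0.919 to 0.968 within P_BB and 0.853 to 0.950 within M_BB, with a median of 0.933 between P_BB and M_BB libraries. These are descriptions across genes, which are not independent replicates.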

How the data were processed

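Antennal RNA of 12 pools (3 worker classes, 4 bioreplicates each) was sequenced by the authors as amplified libraries. Trimmed reads were aligned by the authors with Bowtie2 to 19230 genes and quantified with RSEM. The authors deposited expected counts (estimated counts, not scaled for depth), TPM values, and RSEM's posterior SD of the counts. The deposited exon annotation on Si_gnH placed the 3641 XLOC genes, and 0 of the files' identifiers matched the RefSeq gene table, so names and classes come from the study's table of 81 genes, no marker list of other tissues could be applied and no sequence is given.

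Expected counts were rounded and fitted with edgeR (4.0.16, R 4.3.3) using TMM scaling and the quasi-likelihood test with robust dispersions, after filterByExpr, for all 12 libraries with the 3 classes as the single term, as in the study, whose own tool EBSeq was not used. Other fits used DESeq2 (1.42.0; 8 missing adjusted p-values were left as missing) and limma (3.58.1) on log2(TPM + 1) and log2(TPM + 0.5). The alternatives were other scalings and filters, the SB/SB libraries only, a replicate block, the name prefix as a term, and each library left out. The pipeline was tested on simulated counts in which 200 genes were changed 4-fold. The changed genes were taken only from those of higher mean count. All libraries were drawn independently with the dispersions that edgeR estimated. The recovered shares therefore do not cover genes of few counts, shared colonies or an outlying library, and the setting follows edgeR's model more closely than DESeq2's. At an adjusted p under 0.05, edgeR recovered 84.5% of them and also called 11 unchanged genes. DESeq2 recovered 92.5% and also called 29 unchanged genes, so its calls in this report need that caution. Exact permutation tests and descriptions used Python 3.11.15 and scipy 1.17.1. Depth was 1662249 to 4006513 expected counts per SB/SB library. There were no molecular identifiers, so small counts are not independent molecules.

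The bioreplicate numbers pair the libraries, since the supplementary methods give shared days for the colonies of a number. The deviations of same-numbered P_BB and M_BB libraries from their class means correlated across genes at 0.27, 0.13, 0.29 and 0.34. Pairs of different numbers ran from -0.26 to 0.24. P_BB 6 with M_BB 3, at 0.24, and P_BB 3 with M_BB 7, at 0.18, lay above the 0.13 of bioreplicate 3. No libraries of a class were copies, as chi-square per degree of freedom was 6.57 or more.

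Genes were named by a rule: those past the adjusted threshold (0), the 10 largest differences in each direction among genes with an unadjusted p under 0.01, at least 5 TPM and no overlap, the study's social form genes for chemical metabolism and transposable elements with the extremes of the others, genes tied to SB/Sb, and the 5 most abundant. The members, lists and rule were chosen with earlier results of these data known.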

Additional observations from a re-analysis of the deposited data

Results flagged for a closer look

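In groups of 4 libraries, a value was looked at again where its gap to the nearest other library exceeded Dixon's 95% limit for the share of the group's range. Of 150 groups of named genes and library measures, 15 values were past that limit. The limit's rate of about 1 group in 20 holds for independent groups of normally distributed values. Here the genes share libraries, many were chosen for large differences, and some groups hold 0 in all libraries but 1. The number 15 is therefore a description and cannot be read against that rate. P_BB 2 gave 5 of them: 44.3% of counts in XLOC genes (33.3% to 35.2% in the other P_BB libraries), 21.8 TPM of SINVm1_gene_07970 (10.8 to 12.6), 245 TPM of SINVm1_gene_10481 (269 to 271), 22.3 TPM of XLOC_030870 (15.3 to 16.4) and 54664 TPM of XLOC_043981 (21677 to 27186). P_BB 7 gave 22.8 TPM of SINVm1_gene_00026 (11.5 to 13.1) and 23.1 TPM of SINVm1_gene_03418, where each of the others had 24.4 TPM. P_BB 3 gave 3.28 TPM of XLOC_000138 (0 in the others) and P_BB 6 gave 35.6 TPM of XLOC_029912 (10.7 to 14.7).

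In the M_BB class, M_BB 6 gave 3 values: 88.1 TPM of SINVm1_gene_02859 (35.6 to 40.1), 50.2 TPM of SINVm1_gene_15573 (17.2 to 17.5) and 174 TPM of SINVm1_gene_10899 (0). M_BB 2 gave 65.6 TPM of XLOC_000138 (0 to 6.85), M_BB 3 gave 12.8 TPM of XLOC_029912 (0.54 to 1.2) and M_BB 7 gave 20.4 TPM of SINVm1_gene_10721, which was 0 in the others and rests on 1 count.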

How the results depend on the processing

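The number of genes with an adjusted p under 0.05 was 0 in each fit except DESeq2 (8), and with 1 library left out it was 0 to 1. At an adjusted p under 0.10 it was 0 with the settings of the report, 2 without the filter on low counts, 11 in DESeq2, 2 without P_BB 3 and 1 without M_BB 3. The number at an unadjusted p under 0.05 was 332 with the SB/SB libraries only, 329 with the name prefix as a term and 335 with the LGC libraries only, against 505, and 279 to 946 with 1 library left out. The replicate block gave 0 genes at the adjusted threshold, where it changed no call, and 591 at the unadjusted one, of which 403 were among the 505. The number of genes with an interval between -1 and 1 stayed within 1.5 times of 5652, from 4190 with the LGC libraries only to 6125 with the block. For library measures, the difference of P_BB minus M_BB ran from -331423 to 449998 counts in depth and from -131.8 to 261.5 genes detected with 1 library left out, and with the LGC libraries only it was -512074 counts and -321 genes. The difference in the median SD ran from -0.18 to 0.028 log2 units with 1 library left out. The genes of the SB/Sb list below every P_Bb library numbered 30 in CPM, against 29 in TPM.

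Over 67 named genes and 1316 alternative fits, the log2 fold change kept its direction and its side of the threshold in 1299. It turned for SINVm1_gene_00053 (1.06 and 1.40 in limma, 0.21 with the block and the SB/SB libraries only, -1.22 to 0.38 with 1 library left out), for SINVm1_gene_06964 (0.013) and SINVm1_gene_10887 (0.21) with the LGC libraries only, and for XLOC_016888 (0.26 with the LGC libraries only, -0.31 to 0.080 with 1 library left out). The cause was not tested. The LGC setting for the genes (not for the library measures) and the left-out libraries of the SD were chosen after seeing the data. With 4 colonies a class and 1662249 to 4006513 counts a library, genes of a few TPM rest on few counts. Some genes of higher TPM do so too, such as SINVm1_gene_09036, whose 141 TPM in P_BB 2 rest on 27 counts.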
